A study of Drosophila melanogaster with 3 samples.

Results

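The regions described here are the strongest places on chromatin at which tagged Scute was detected by ChIP-seq in whole Drosophila melanogaster embryos. They were chosen by the authors' pooled signal in the thresholded dm6 list, a deposited set kept by the irreproducible discovery rate (IDR) procedure. A signal of 500 or more was required, and 459 of the 3612 regions of the list met it, which leaves 3153 remaining regions for comparison. The embryos came from a transgenic line carrying a C-terminal GFP fusion of sc, were of both sexes and 0 to 14 h old, and were immunoprecipitated with an antibody against GFP in 3 biological replicates that form a single group. All 3 came from the same line, whole embryos of mixed ages were used, and the control named for the experiment was not analysed here, so cell types, stages and binding that does not depend on the tagged protein cannot be told apart. The lists give no read counts, so the depth is unknown, and the intervals below cover counting error over regions only.

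Scute is a proneural transcription factor of the basic helix-loop-helix class. It pairs with Daughterless and the pair reads E-boxes, short sites of the form CANNTG, to turn on genes that make a cell a neural precursor, while Notch signalling switches the same programme off in its neighbours. On the X chromosome sc is also one of the genes whose dose is counted in sex determination. Regions that many proteins share in ChIP-seq of whole embryos often lie at open promoters, where GAGA factor, the product of Trl, binds GA repeats and helps to keep nucleosomes away.

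The following sequences are 9 of the strongest regions, shown because they hold, or lack, AGAGAG or CAGCTG. These are among the hexamers that differed between strong and remaining regions in the flanks of their summits. Each runs 5′ to 3′ on the forward strand of Release 6 (dm6), up to 149 bp each side of the summit, ends where an annotated UTR begins, and has AGAGAG and CAGCTG, on either strand, in capitals. They were picked after these values were seen, by rank of pooled signal and by what they hold. The region ranked 2 lies in an intron of ush at chr2L:480906-481204, that ranked 9 upstream of ph-p at chrX:2137167-2137465, and that ranked 15 in an intron of cno at chr3R:5215380-5215678. Rank 18 is the intron of Trl at chr3L:14759382-14759680, rank 20 the promoter of CG18549 at chr3R:12449047-12449295, and rank 21 an intron of Lk6 at chr3R:11760895-11761193. Rank 22 is intergenic at chr2L:2202262-2202560, with CG31668 as the gene of the nearest start, rank 33 lies at the promoter of CG5611 at chr3R:27636061-27636335, and rank 57 at the promoter of CG1635 at chr3R:31588383-31588672.
ush: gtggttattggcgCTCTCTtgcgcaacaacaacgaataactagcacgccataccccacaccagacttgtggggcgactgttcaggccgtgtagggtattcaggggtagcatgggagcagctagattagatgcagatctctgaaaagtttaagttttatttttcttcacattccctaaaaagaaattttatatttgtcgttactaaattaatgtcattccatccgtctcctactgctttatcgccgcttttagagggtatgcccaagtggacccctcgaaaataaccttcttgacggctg
ph-p: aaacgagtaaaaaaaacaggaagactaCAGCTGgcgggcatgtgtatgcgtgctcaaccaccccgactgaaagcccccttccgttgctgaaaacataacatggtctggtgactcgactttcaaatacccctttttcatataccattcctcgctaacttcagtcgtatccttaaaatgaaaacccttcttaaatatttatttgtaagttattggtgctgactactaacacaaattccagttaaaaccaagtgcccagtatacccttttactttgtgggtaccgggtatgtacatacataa
cno: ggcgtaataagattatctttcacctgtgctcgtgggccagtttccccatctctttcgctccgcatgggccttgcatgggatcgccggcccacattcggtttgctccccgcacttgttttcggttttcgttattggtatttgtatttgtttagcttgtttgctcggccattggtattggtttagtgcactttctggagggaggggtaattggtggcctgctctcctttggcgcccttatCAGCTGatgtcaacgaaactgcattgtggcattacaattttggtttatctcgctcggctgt
Trl: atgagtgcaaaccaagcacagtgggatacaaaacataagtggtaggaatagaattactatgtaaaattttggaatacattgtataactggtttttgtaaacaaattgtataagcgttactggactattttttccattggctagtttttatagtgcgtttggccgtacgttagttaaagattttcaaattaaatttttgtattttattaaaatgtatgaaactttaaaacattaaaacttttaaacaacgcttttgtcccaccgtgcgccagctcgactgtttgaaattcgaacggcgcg
CG18549: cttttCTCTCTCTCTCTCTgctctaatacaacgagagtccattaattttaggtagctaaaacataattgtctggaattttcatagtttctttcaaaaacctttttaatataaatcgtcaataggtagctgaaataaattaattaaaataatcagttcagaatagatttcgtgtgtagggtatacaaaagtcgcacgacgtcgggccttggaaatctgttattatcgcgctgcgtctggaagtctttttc
Lk6: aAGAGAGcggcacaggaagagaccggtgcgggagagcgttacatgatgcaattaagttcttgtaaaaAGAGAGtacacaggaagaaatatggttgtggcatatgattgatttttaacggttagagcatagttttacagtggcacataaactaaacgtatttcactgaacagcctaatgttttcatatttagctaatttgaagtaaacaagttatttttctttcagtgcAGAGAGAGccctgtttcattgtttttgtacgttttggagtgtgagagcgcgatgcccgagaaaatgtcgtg
CG31668: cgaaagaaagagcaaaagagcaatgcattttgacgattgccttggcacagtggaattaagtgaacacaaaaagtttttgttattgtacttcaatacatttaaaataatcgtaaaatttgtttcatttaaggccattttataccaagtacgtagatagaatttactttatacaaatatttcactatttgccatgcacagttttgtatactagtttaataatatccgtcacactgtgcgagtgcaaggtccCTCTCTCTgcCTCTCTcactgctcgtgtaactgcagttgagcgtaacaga
CG5611: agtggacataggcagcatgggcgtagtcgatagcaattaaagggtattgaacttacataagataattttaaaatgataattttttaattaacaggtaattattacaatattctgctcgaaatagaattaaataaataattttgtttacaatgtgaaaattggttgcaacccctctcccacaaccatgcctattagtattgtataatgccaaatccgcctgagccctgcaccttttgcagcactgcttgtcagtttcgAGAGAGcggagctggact
CG1635: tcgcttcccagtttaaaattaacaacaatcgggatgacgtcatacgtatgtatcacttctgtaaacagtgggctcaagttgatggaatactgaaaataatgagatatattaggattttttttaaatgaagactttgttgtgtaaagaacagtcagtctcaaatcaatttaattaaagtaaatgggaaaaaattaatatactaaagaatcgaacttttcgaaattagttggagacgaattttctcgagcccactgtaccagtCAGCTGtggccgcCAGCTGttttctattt
In ush the GA-repeat hexamer is centred 133 bp before the summit, and in ph-p the E-box CAGCTG is centred 119 bp before it. At CG18549 the 5 overlapping hexamers of a single CT run lie 123 to 131 bp before the summit. At CG1635 both copies of CAGCTG lie after the summit, at 115 and 128 bp. The CAGCTG of cno, at 92 bp, is nearer to the summit than the flanks, which start at 101 bp. In Lk6 AGAGAG is centred 145 and 79 bp before the summit and 82 and 84 bp after it. Only the first of these lies in the flanks. None of the capital letters lies within 50 bp of a summit. The region in Trl, the gene of GAGA factor, holds neither hexamer in its window.

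The signal of the strong regions ran from 501 to 2359 with a median of 660.03, and that of the remaining regions from 146 to 499.9 with a median of 213. These values are the rule itself and are given as a description. The last regions inside the threshold had signals of 501.6, 501.5 and 500.9, on chromosomes 4, 3R and 2R, and the first outside it 499.9, 499.6 and 499.6, on 3L, X and 3L, so no gap separates the groups. Strong regions were also narrower, at a median of 296 bp against 430 bp. A width of exactly 430 bp was shared by 2457 remaining regions, 77.9%, and by 1 strong region. The median of the others is thus that 1 repeated width, and why so many share it was not examined. A width under 430 bp was found in 438 strong and 695 remaining regions. All 459 carried the largest −log10 q-value of the list, as did 2755 of the others.

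Each replicate has a list of its own, on its own scale, and the same regions led all of them. The region 213 bp upstream of px, a wing vein gene, had a pooled signal of 2359 and signals of 712, 898 and 759 in replicates 1, 2 and 3. The ush region had a pooled signal of 2274, with 616, 908 and 718 in the replicates. ush encodes a cofactor of GATA factors, and the nearest start, 1367 bp away, is that of cbt, a zinc finger factor gene. Replicate 2 was the highest of the 3 at both, as it was for the median over matched strong regions, 257 against 194 in replicate 1 and 216 in replicate 3. Of the 459 regions, 402, 420 and 410 were among the highest 459 of replicates 1, 2 and 3, which is 89.5% ± 1.96 (SD, n = 3). All 3 replicates shared 342 of them at that rank, 91 were there in 2 replicates, 24 in 1 and 2 in none. Replicates took part in the pooled list, so this sharing is a description.

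**Figure D1:**
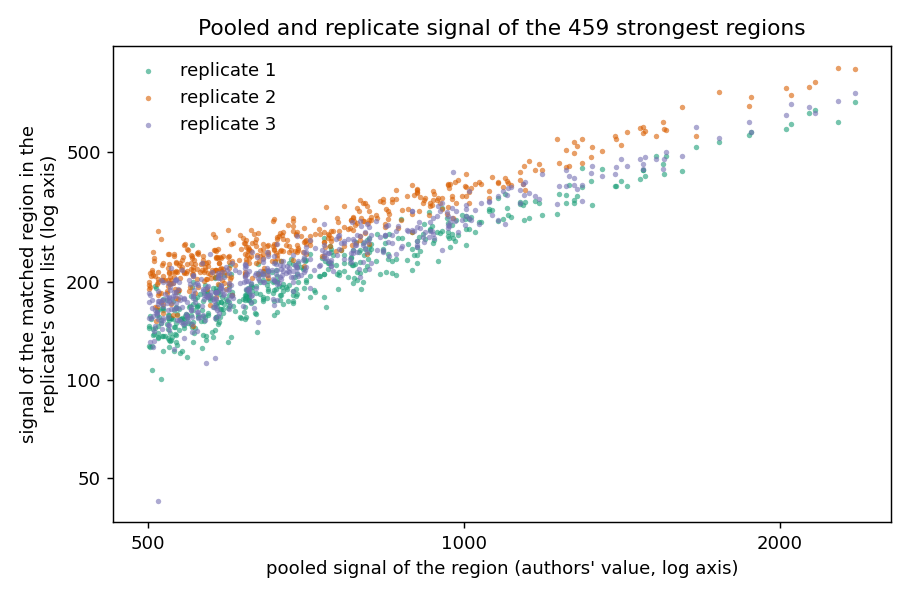
Each point is a strong region in a replicate, with the authors' pooled signal on the x axis and the signal of the matched region in the replicate's own list on the y axis, both on log axes. The clouds of the 3 replicates rise together and replicate 2 lies highest, and the lone low point is the simj region in replicate 3, at 42.5.

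Few regions were out of step. A match within 250 bp was missing for 3 strong regions in replicate 1, 1 in replicate 2 and 3 in replicate 3. A region in an intron of simj, with a pooled signal of 512, had signals of 164 and 286 in replicates 1 and 2 but 42.5 in replicate 3, where it ranked 4413. It and the unmatched ones each had another thresholded summit 200 to 231 bp away. Across strong regions, Spearman's rho between replicate signals was 0.791 ± 0.0265 (SD over 3 pairs), and across the remaining regions 0.621 ± 0.00824. Both are across regions, which are not independent replicates.

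More than any other feature, promoters held the strong summits. A promoter is here within 500 bp of the start of a protein-coding gene. Promoters held 240 of 459 strong summits, 52.3% (95% Wilson interval 47.7 to 56.8), and 1124 of 3153 others, 35.6% (34.0 to 37.3). The difference was 16.6 points (11.8 to 21.5), a ratio of 1.47 (two-sided Fisher's exact test, adjusted p = 9.29e-11 over 6 features). Introns held fewer strong summits, 31.4% against 41.5% (Fisher's exact test, adjusted p = 8.60e-05). Intergenic sequence also held fewer, 15.5% against 21.3% (Fisher's exact test, adjusted p = 0.00724), though at a signal of 700 or more this did not pass (ratio 0.695, adjusted p = 0.0697). Coding sequence held 2 strong and 8 other summits, 5' UTRs 2 and 16, and 3' UTRs 0 and 24, which allows a share of up to 0.654% among strong regions. None of these small classes passed (Fisher's exact test, adjusted p = 0.443, 1 and 0.0951).

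**Figure D2:**
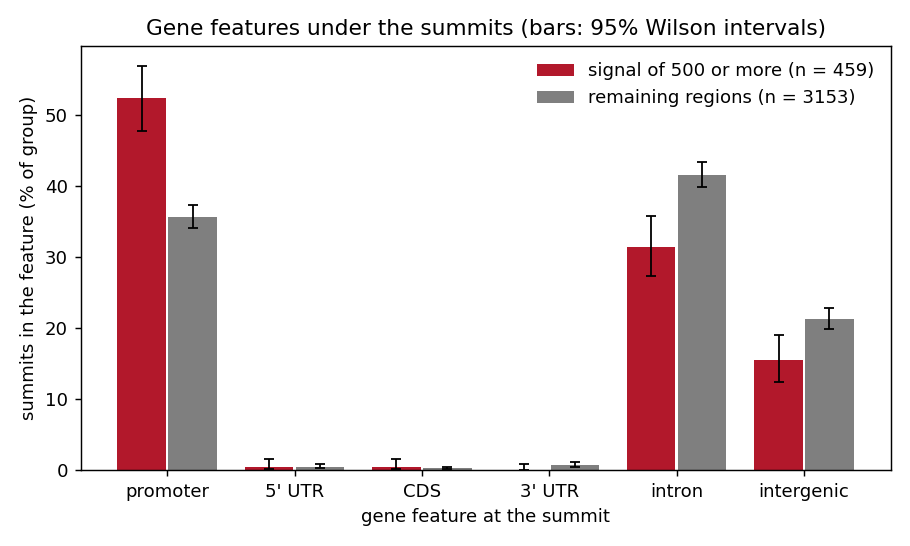
Bars give the percentage of summits in each gene feature for strong (red) and remaining (grey) regions, with 95% Wilson intervals as lines. Promoters stand at 52.3% against 35.6%, while introns and intergenic sequence are lower at strong regions.

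The promoter share was highest in the bins of highest signal. With the thresholded list divided by signal into 10 bins of equal size, the first bin had 54.4% of summits at promoters, bin 2 had 46.8% and bin 3 had 39.9%, and bins 6 to 9 had 30.5% to 33.4%. Bin 10, of the lowest signal, had 35.7%. Ranks of the list are those of the rule, so this order is given as a description. Beyond promoters, 73.2% of strong summits lay within 2 kb of a start against 56.7% of the others (Fisher's exact test, adjusted p = 3.96e-11 over 5 properties). The median distance to a start was 423 bp against 1388 bp.

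Promoter summits sat mostly upstream of the start in both groups. Upstream were 214 of the 240 strong and 953 of the 1124 remaining promoter summits, and the median position, negative being upstream, was −163.5 bp against −131 bp for the remaining promoter summits. A position 100 to 300 bp upstream was found for 159 of 240 strong promoter summits, 66.2% (60.1 to 71.9), and for 497 of 1124 others, 44.2% (41.3 to 47.1). This window was chosen after the positions were seen (Fisher's exact test, p = 6.60e-10). Summits within 100 bp of a start, all of them promoter summits, were 45 of the 240 strong and 351 of the 1124 other promoter summits. Of all summits, at promoters or not, they were 9.80% of the strong and 11.1% of the others.

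**Figure D3:**
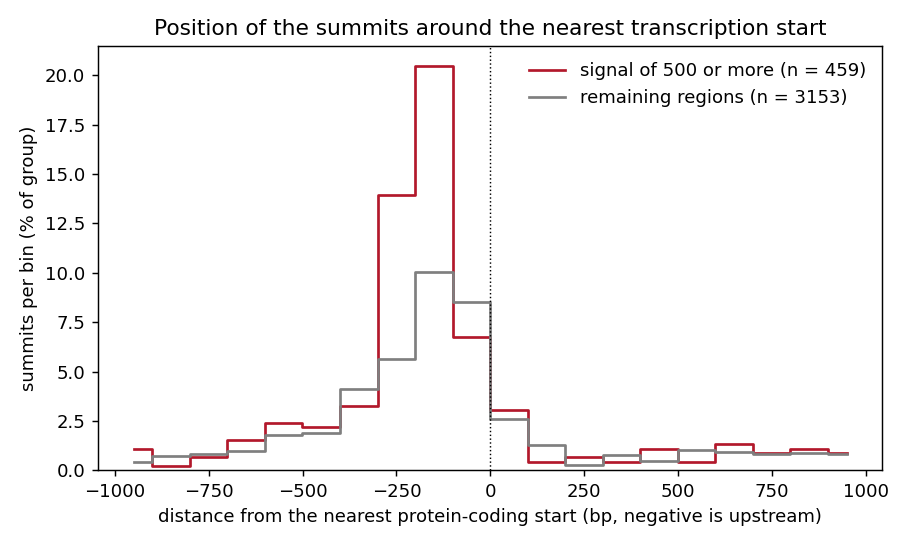
The lines give the percentage of strong (red) and remaining (grey) summits in each 100 bp bin around the nearest protein-coding start, with upstream positions negative. The bins from 300 to 101 bp upstream hold 13.9% and 20.5% of strong summits against 5.65% and 10.02% of the others.

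Starts of different genes on opposite strands within 500 bp marked 17.2% of strong and 12.4% of other summits (Fisher's exact test, adjusted p = 0.00992). Against the 1805 remaining regions found among the highest of all replicates the ratio was 1.26 and did not pass (Fisher's exact test, adjusted p = 0.0880). Among promoter summits alone the shares were 32.9% and 34.9% (Fisher's exact test, p = 0.601; difference −1.96 points, −8.27 to 4.79). Strong summits more often had another thresholded summit within 5 kb, 58.0% against 48.8% (Fisher's exact test, adjusted p = 0.00065). The share on X was 16.6% against 16.9% and did not pass (Fisher's exact test, adjusted p = 0.894; difference −0.315 points, −3.71 to 3.57). Arm 3R had the most strong regions, 106, followed by 2L with 101. These were 23.1% and 22.0% of the strong regions, against 23.5% and 19.7% of the others, and arms other than X were not tested. Per Mb of called sequence 2L had 4.30 and the other large arms 3.24 to 3.31.

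In the 201 bp around the summits, no searched motif told the strong regions from the rest. The achaete-scute and Daughterless site, GCAGCTG or GCAGGTG on either strand, was found in 4.14% of strong windows (2.67 to 6.37), 4.69% of the others and 7.19% of 201 bp tiles of the genome. The E-box CAGCTG, which overlaps the first form of that site, was in 6.97%, 7.99% and 8.39%. GAGAGAG, the GAGA repeat, was in 3.27% of strong and 3.62% of other windows, and 2.45% of tiles. GATA sites, the letters GATA between A or T and A or G, were common in both, at 39.0% and 40.0%, against 30.1% of tiles. Of 18 motifs 0 passed by Fisher's exact test, with 0 at an unadjusted p under 0.05 and a smallest adjusted p of 0.931. A search of all 2080 hexamers, added after these results, gave 0 calls, 0% (Fisher's exact test; 103 at an unadjusted p under 0.05). With promoter and other summits as strata (exact Cochran-Mantel-Haenszel test) 0 passed, and with 3 classes of GC content 1. Any E-box at all, also added later, was in 55.3% of strong and 60.8% of other windows (Fisher's exact test, p = 0.0283). With 3 classes of GC content as strata the odds ratio was 0.831 (exact Cochran-Mantel-Haenszel test, p = 0.079).

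Farther out the picture changed. With 200 bp each side of the summit, an alternative listed with the other window sizes, the GAGA repeat was in 100 of 459 strong and 314 of 3153 other windows, a ratio of 2.19 (Fisher's exact test, adjusted p = 1.25e-10 over 18 motifs). CAGCTG was in 108 and 557, a ratio of 1.33 (Fisher's exact test, adjusted p = 0.0271), and 2 of 18 motifs passed. Both had been slightly lower at strong regions in the shorter window. The flanks from 101 to 200 bp on both sides were therefore examined apart, a choice made after the wider window was seen. There the GAGA repeat was in 18.5% of strong regions (15.2 to 22.3) and 6.82% of the others (5.99 to 7.75), a ratio of 2.72 (Fisher's exact test, adjusted p = 5.41e-13). CAGCTG was in 17.6% and 10.2% (Fisher's exact test, adjusted p = 6.94e-05). The achaete-scute and Daughterless site, in 6.536% and 6.50%, did not pass, nor did the rest of the motifs.

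The search of all 2080 hexamers was run in the wider window and in the flanks too. Within 200 bp 13 passed, 0.625%, all of them higher at strong regions. CAGCTG was not among these 13, although it had passed in that window among the 18 motifs. In the flanks 35 were higher, 1.68%, and 14 lower, 0.673% (Fisher's exact test, adjusted p under the 0.05 threshold). AGAGAG led, in 145 strong regions, 31.6% (27.5 to 36.0), and 473 of 3153 others (13.8 to 16.3), a ratio of 2.11 (Fisher's exact test, adjusted p = 5.76e-13). The genome gives 7.22% for 401 bp tiles read the same way. All 8 hexamers that hold GAGAG or its complement were among the 35. CAGCTG came at place 12 in order of p, in 81 strong regions, 17.6%, and 322 others, 10.2% (Fisher's exact test, adjusted p = 0.00134), against 8.24% of tiles. Of the 10 kinds of E-box, counting a hexamer and its complement as one, CAGCTG alone passed. CACGTG had 3.92% against 2.51% (Fisher's exact test, adjusted p = 0.488) and CAGATG 4.36% against 7.83% (adjusted p = 0.144). Among the 14 lower hexamers 7 were made of A and T only, such as ATTTAA, at 19.6% against 29.8%.

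Base composition moved in the same bands, so the flanks were also compared within 3 classes of their own GC content. Flank GC averaged 43.7% ± 7.09 (SD over 459 regions) at strong and 41.3% ± 7.03 (SD over 3153) at other regions. AGAGAG then had an odds ratio of 2.41 (exact Cochran-Mantel-Haenszel test, adjusted p = 3.82e-10 over 2080 hexamers) and CAGCTG 1.77 (adjusted p = 0.0124). In all 14 hexamers passed in these strata and 67 with promoter and other summits as strata. Of the 8 with GAGAG, 5 passed in the GC strata, and 3 did not (the same exact test, adjusted p = 0.0517 to 0.143). ATTTAA did not pass with GC strata (the same exact test, adjusted p = 0.252). ATCTGG and ACACCT, also lower at strong regions, did pass (the same exact test, adjusted p = 0.00609 and 0.0413).

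These differences depended on the distance from the summit. Within 50 bp of the summit AGAGAG was centred in 3.92% of strong and 4.54% of other regions, and at 151 to 200 bp in 21.8% and 8.91%. At 201 to 250 bp the shares were 13.9% and 8.28%, and at 251 to 300 bp 12.2% and 7.23%. In the wider bands beyond, AGAGAG was still higher at strong regions, with 20.5% and 13.3% at 301 to 400 bp. At 401 to 500 bp, the farthest band counted, the shares were 18.1% and 13.3%. CAGCTG differed over a shorter range, with 11.8% against 5.87% at 101 to 150 bp, 8.28% against 5.20% at 151 to 200 bp and 5.66% against 5.61% at 201 to 250 bp. Both sides of the summit carried them. At promoters AGAGAG was centred in the flank towards the start in 19.2% of strong and 8.45% of other regions, and in the flank away from it in 22.5% and 8.27%. For CAGCTG these shares were 14.6% and 7.83% towards the start, and 12.5% and 6.67% away from it. Read from each replicate's own summits, AGAGAG in the flanks had a ratio of 2.09 ± 0.0824 (SD, n = 3) and CAGCTG one of 1.74 ± 0.0319.

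**Figure D4:**
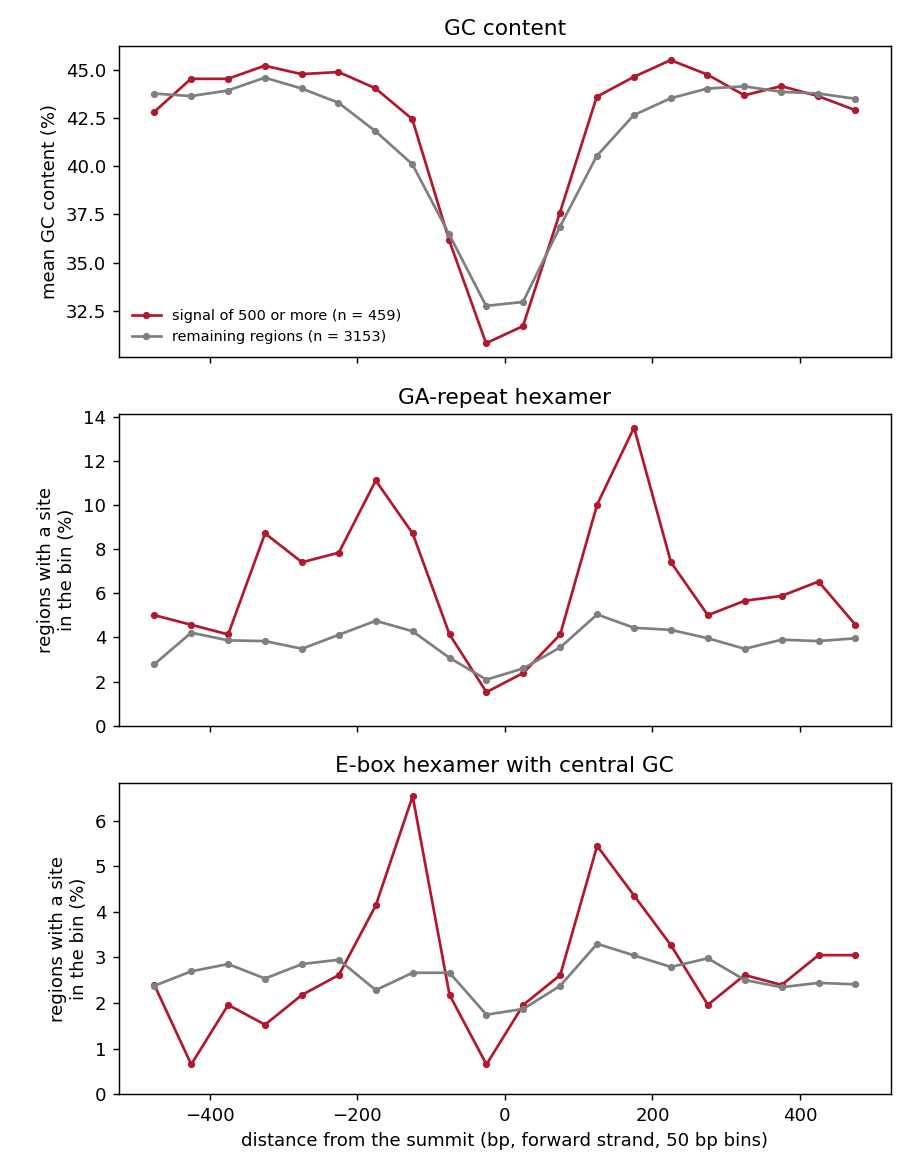
The panels plot, against the distance from the summit in 50 bp bins, the mean GC content and the percentage of regions with AGAGAG (GA-repeat hexamer) or CAGCTG (E-box hexamer with central GC) centred in the bin, for strong (red) and remaining (grey) regions. GC content dips at the summit in both groups, and both hexamers are rare at the strong summits and peak in their flanks.

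The GA repeat was found at strong regions of every common feature. AGAGAG in the flanks was held by 32.9% of strong and 14.8% of other promoter regions, by 33.3% and 16.6% of intronic ones, and by 23.9% and 12.2% of intergenic ones. CAGCTG was held by 23.8% and 13.1% at promoters (Fisher's exact test, p = 5.97e-05), by 14.6% and 9.47% in introns (p = 0.0570 by the same exact test) and, in the other direction, by 4.23% and 7.45% of intergenic regions (p = 0.466, exact). Over all regions away from promoters its difference was 2.33 points (−1.38 to 7.30; Fisher's exact test, p = 0.259). Whether CAGCTG differed more at promoters than elsewhere was not tested. Either hexamer was in the flanks of 208 strong regions, 45.3%, and of 743 others, 23.6%. Both together were in 18 strong regions and 52 others. By the same 10 bins, the share with AGAGAG went from 33.7% in bin 1 through 24.4% and 17.2% to between 10.8% and 15.5% from bin 4 on. The share with CAGCTG went from 18.8% in bin 1 to between 7.76% and 13.6% in the others.

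**Figure D5:**
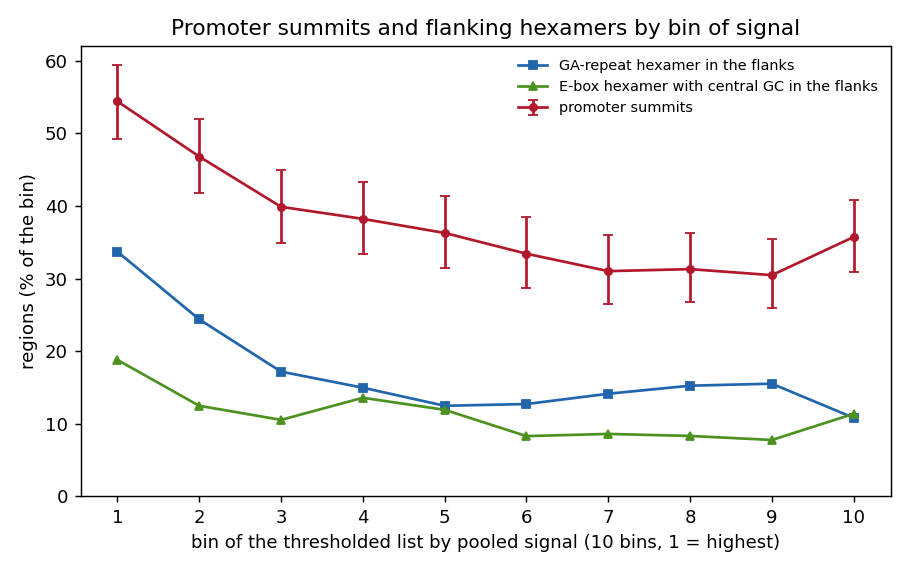
For each of 10 bins of the thresholded list by pooled signal, bin 1 being the highest, the plot gives the percentage of regions with a promoter summit (95% Wilson intervals as bars), with AGAGAG (GA-repeat hexamer) and with CAGCTG (E-box hexamer with central GC) at 101 to 200 bp from the summit. Promoter share and AGAGAG share are highest in bin 1, at 54.4% and 33.7%.

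The summits themselves lay in a valley of GC content, which was deeper at strong regions. The central 51 bp averaged 30.7% ± 9.76 (SD over regions) at strong and 32.4% ± 10.4 at other regions, against 42.2% for tiles of the genome. Centre minus flank was −13.0 points against −8.86, at promoters −13.2 against −6.90, and at other summits −12.8 against −9.95. Each replicate's own summits gave −13.2 ± 0.231 and −8.17 ± 0.292 (SD, n = 3). A window GC content above the median of the list was found in 42.5% of strong and 47.6% of other regions (Fisher's exact test, adjusted p = 0.0504). This call depended on the replicates, passing without replicate 1 (ratio 0.882, Fisher's exact test, adjusted p = 0.0389) and without replicate 2 (ratio 0.841, adjusted p = 0.00282).

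Among genes, 536 of 13945 protein-coding genes, 3.84%, had a strong summit in their territory, the gene body with 2 kb upstream, and 2858, 20.5%, had any thresholded summit. A summit could count for several genes: 157 strong summits lay in 2 or more territories, 249 in 1 and 53 in none. The counts below are read against these shares, with no test of the lists, and make no allowance for the length of the territories. Dl, meant for the sensory organ precursor and Notch pathway lists, was not found in the gene models by that symbol. Neither was calypso, meant for the Polycomb list, so these 2 genes were not examined in the lists.

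The list of proneural and related bHLH genes had strong regions in 0 of 11, which in a list of this size is near the share of all genes. A thresholded region of any strength was found in 2 of them. For ac, sc, l(1)sc and ase the nearest strong region was at elav, a gene for a neuronal RNA-binding protein, at 153, 127, 114 and 62.7 kb. That region, 248 bp from the start of elav, had a pooled signal of 838, with 248, 351 and 246 in the replicates. In the sensory organ precursor list 11 of 15 genes, 73.3%, had a thresholded region of any strength, and 4, 26.7%, a strong one. chn, a zinc finger gene of bristle formation, had one 178 bp from its start with a pooled signal of 1077 (308, 400 and 367). edl, which encodes a modulator of ETS factors, had 2, the higher at 827, numb, whose product is handed to 1 daughter in asymmetric division and blocks Notch there, had one at 781, and cpo, an RNA-binding protein gene, one at 554.

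To the list of Notch pathway genes those of the E(spl) and Brd complexes were added. Of its 25 genes, 12 had a thresholded region of any strength and 6 a strong one. E(spl)m3-HLH, a bHLH repressor gene turned on by Notch, had one at its promoter with a pooled signal of 844 (214, 334 and 295). Its neighbours E(spl)mdelta-HLH and E(spl)m7-HLH had regions at 629 and 628, and gro, the gene of the corepressor that E(spl) proteins recruit, one at 668. mam, a Notch coactivator gene, had one at 548, and N, the receptor gene, one in an intron at 511, near the threshold. The E(spl)mdelta-HLH, mam and N summits had other genes as their nearest starts, at 408, 3455 and 10587 bp, so that 3 of the 6 genes were nearest to their summit.

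Chromatin genes supplied several of the highest regions. In the Polycomb group list 6 of 19 genes had a thresholded region of any strength and 4 a strong one. The ph-p region, with a pooled signal of 1749 (536, 763 and 553), was accompanied by another 639 bp away at 976.5, and its sister gene ph-d, which also encodes Polyhomeotic, had one at 1056. phol and E(z) followed at 790 and 664; phol encodes a DNA-binding Polycomb protein and E(z) the histone methyltransferase. The nearest start to the phol summit, at 114 bp, was that of CG3552. A region of signal 1613 (437, 689 and 487) lay 4204 bp from the start of Psc, another Polycomb gene, outside its territory. The trithorax and GAGA factor list had thresholded regions of any strength in 10 of 19 genes and strong ones in 4. Trl had one in an intron at 1480 (441, 573 and 459), osa and brm, both of the Brahma remodelling complex, at 997 and 755, and trx at 966; the start nearest to the brm summit was that of Arl1. In the list of HMG-box, insulator and core promoter factors 9 of 16 had a thresholded region of any strength and 5 a strong one. Chro, a chromosomal protein gene, reached 1869 (564, 693 and 616), and a single region in the neighbouring HMG-box genes HmgZ and HmgD 1558. Cp190, an insulator protein gene, had one at 841, and Dsp1, an HMG-box gene, one at 595, and the nearest starts to these summits were those of CG4338 and CG9921.

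Among patterning and differentiation lists, no strong region lay in the territories of 23 anterior-posterior genes, 10 Hox and cofactor genes or 12 glial genes, of which 5 each had a thresholded region of any strength. In lists of this size 0 is near the share of all genes. A region of signal 917 had slp2, an anterior-posterior gene, as its nearest start, 4314 bp away and outside its territory. Dorsal-ventral genes had 3 of 18, and 7 at any strength. The 3 were ush with 3 strong regions, brk, a repressor gene of Dpp targets, with 2, and sim, a midline bHLH gene, with 1. The summits of the brk pair lay 200 bp apart. Mesoderm and muscle genes had 4 of 18, and 12 at any strength. The region at Mef2, a muscle transcription factor gene, stood at 1102 but had Pal1 as its nearest start, 141 bp away. stumps, an FGF pathway gene, had one at 621, Msp300, a nuclear anchoring protein gene, one at 573, and bin, a forkhead gene of visceral muscle, one at 527. Ecdysone response and nuclear receptor genes had 3 of 17, and 12 at any strength. The 3 were Hr3 at 1131, Hr4 at 975 and Eip75B at 536, all in introns. Neuroblast and neuron genes had 3 of 17, with brat and grh beside elav, and 8 at any strength. Sex determination genes had 1 of 15, the shared corepressor gene gro, and 5 at any strength. Cell cycle genes had 1 of 16, CycE, at 624, and 6 at any strength.

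Cytoplasmic ribosomal protein genes had a strong region in 10 of 85 and a thresholded region of any strength in 58. These 10 had signals from 507 to 812, the highest at RpS27, 5 bp from its start, and all lay within 131 bp of a start of the gene. At any strength, mitochondrial ribosomal protein genes had 22 of 73 and translation factor genes 13 of 51. Strong regions were found in 6 and 5 of these genes, with higher regions among them. The highest of these, at 2050, lay 38 bp from the start of Ugalt, a nucleotide sugar transporter gene, and 681 bp from that of eIF2Bbeta. The second, at 1664, lay between Art3, an arginine methyltransferase gene, and mRpS10. Only 2 of the 6 mitochondrial ribosomal protein genes and 2 of the 5 translation factor genes had the start nearest to their summit. Chemoreceptor genes had 0 of 179, which allows a share of up to 1.68%, and 4 had a thresholded region.

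Some loci carried several strong regions. Of the 459, 91 formed 42 groups in which each summit was within 5 kb of the next, 35 pairs and 7 triplets. Some of these summits were close together, such as pairs 200 bp apart at brk and 231 bp apart at simj. Both spacings are under the 250 bp used to match replicate regions. In all 48 genes had 2 or more strong summits in their territory and 8 had 3 or more. CG1677 had 6 in a territory of 127 kb, CHES-1-like 4 in 29.0 kb and sbb 4 in 81.1 kb. Those of CG1677 included the pair at brk and a pair with signals of 585 and 1025. These pairs also lay in the territories of brk and CBP, and the 1025 summit was 274 bp upstream of the CBP start. brwl had 3 in 6.68 kb, with signals of 785, 1110 and 694, and all of its thresholded summits were strong. Raf, a kinase gene of receptor tyrosine kinase signalling, had 3 in 50.4 kb among 10 thresholded summits, and simj and tara had 3 each.

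Of the 20 strongest regions 11 were at promoters, 5 in introns and 4 intergenic. AGAGAG was in the flanks of 7 of these 20, among them px, ush and the intergenic region near Psc, and CAGCTG in those of 3, ush, ph-p and the promoter shared by Tcs5 and CHMP2B. ush held both, and 11 of the 20 held neither, including Chro, Trl, Ugalt and HmgZ. Regions with and without these sites were thus mixed among the 20.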

How the data were processed

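Regions came from lists that the authors deposited for the dm6 assembly: a thresholded list, and a list per replicate. The signal of each region is the authors' value on the scale of its own list, not normalized between libraries, and the −log10 of the q-value was deposited beside it, by the column layout of the format. Which aligner and peak caller were used is not given in the sources used here. No control was analysed. Summits are the deposited offsets. Fragments were of 200 to 800 bp, per the labels. Replicate regions were matched within 250 bp of a thresholded summit. The dm3 list gave counts only.

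Positions are 1-based on Release 6. Gene models were Ensembl release 115, and features were assigned in the order promoter, 5' UTR, coding sequence, 3' UTR, intron, intergenic. Shares were compared by two-sided Fisher's exact tests with Benjamini-Hochberg adjustment at 0.05 over 6 features, 18 motifs, 5 properties or 2080 hexamers, and in strata with exact Cochran-Mantel-Haenszel tests, the exact form being chosen after the data were seen. Intervals are 95% Wilson, or Newcombe for differences. Tile shares use non-overlapping windows of the 6 arms. The limit on a count of 0 is 3 regions or genes of the total. Named regions are the 20 of highest signal, the 3 on each side of the threshold, the 4 highest genes of each list fixed by name, and ac, sc, l(1)sc and ase. Other named genes and the printed sequences were chosen after their values were seen. Members and lists were chosen with earlier results of these data known, among them more CAGCTG sites at 100 to 300 bp from all thresholded summits than farther out. Code was tested on simulated data, with Python 3.11.15, numpy 2.4.6, scipy 1.17.1, pandas 2.3.3 and matplotlib 3.10.9. Alternatives covered the threshold, the comparison regions, each replicate left out, promoter distance, window, strata, neighbour distance, matching distance, gene assignment and assembly.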

Additional observations from a re-analysis of the deposited data

How the results depend on the processing

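Of 192 values recomputed under an alternative, 177 were classed as the same. For the ratios among them this meant the same direction and side of the threshold. The flank hexamers had no adjusted p in these alternatives. Some of the 177 were counts or shares with no threshold, such as the 408 genes by nearest starts. Promoter ratios ran from 1.40 to 1.60 over 10 alternatives, all past the threshold, one of which used the starts of all annotated genes other than transposable elements. AGAGAG in the flanks ran from 1.82 (regions under 430 bp wide) to 2.62 and CAGCTG from 1.56 to 1.86 over 10 alternatives each (odds ratios in strata), all chosen after seeing the data and all at an unadjusted Fisher's exact or exact Cochran-Mantel-Haenszel p under 0.05. At a signal of 400 or more, window GC content above the median passed (ratio 0.849), and without 1 replicate its ratio ran from 0.841 to 0.908. The intergenic ratio did not pass at 700 or more (0.695), nor did opposite starts against remaining regions found in all replicates (1.26). With 200 bp each side, 2 motifs passed, the GAGA repeat at 2.19 and CAGCTG at 1.33, both turned from below 1. Directions that turned without any call were the GAGA repeat at 400 or more (1.06) and against regions found in all replicates (1.05), CATATG at 700 or more (0.916), 5' UTRs against those regions (1.12) and with promoters of 250 bp (1.18), GATA sites without 1 replicate (0.975 to 1), and the share on X away from starts, beyond 500 bp (1.07). The causes were not tested. Leaving out a replicate kept 427 to 439 of the 459 regions, and the dm3 list gave 458. Nearest starts gave 408 genes in place of 536. No paired analysis was possible because the replicates form a single group. Unknown depth limits every signal, and 2 strong summits in a class are too few to compare.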

Other observations

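Non-coding RNA starts lay within 500 bp of 29 strong summits, 6.32%, and of 163 others, 5.17%. Of the strong summits, 1 lay within 500 bp of a tRNA start, 2 of a snoRNA start and 0 of an snRNA start. Strong summits over 5 kb from any protein-coding start numbered 67, 14.6%, against 25.6% of the others, and 28 lay over 10 kb away.

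The leading hexamer of the 201 bp around the summits was GGCGTA, in 7.19% of strong and 3.01% of other windows. It passed in strata by GC content (exact Cochran-Mantel-Haenszel test, adjusted p = 0.0193) but neither in strata by promoter (adjusted p = 0.146) nor without strata (Fisher's exact test, adjusted p = 0.078). Within 200 bp it was in 13.1% of strong and 6.37% of other regions. In that window it passed without strata (Fisher's exact test, adjusted p = 0.000866). It also passed there in strata by promoter (exact Cochran-Mantel-Haenszel test, adjusted p = 0.00136).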
